A study of Arabidopsis thaliana with 6 samples.

Results

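The mitotic cyclins and other genes of the G2 and M phases were examined in root tips of the *an3* mutant and the wild type Columbia (Col). The set holds 38 genes, listed by locus and chosen with earlier results of these data known. It covers A- and B-type cyclins, B-type cyclin-dependent kinases (CDKB), Aurora kinases and the transcription factors MYB3R1, MYB3R4 and SCL28. Genes of the spindle, the spindle checkpoint and cytokinesis complete it. All 38 loci have a row of their own among the 33201 rows of the deposited table, and the mean of both genotypes reached 1 FPKM for 36 of them and for 17229 rows in all.

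The *an3* line is a loss-of-function line of *AN3* (also *GIF1*), a co-activator of transcription that partners GRF proteins, and the SALK border primer used to genotype it marks a T-DNA insertion line. Tips of about 5 mm were cut from roots after 5 days of growth, with 3 *an3* samples and 3 Col samples, and were sequenced as single-end reads of 100 bp. For each gene the authors deposited 1 FPKM value (fragments scaled by transcript length and by sequencing depth) for *an3* and 1 for Col, so that no spread between the 3 samples can be shown, no test was made and the depth of each sample is unknown. Ratios are given as the log2 of *an3* over Col after 0.1 FPKM was added to both, which understates differences of low genes, and "higher" and "lower" below describe these single values. Ratios were counted past 2 lines, the first at 25% higher or 20% lower in *an3* once 0.1 FPKM has been added (a log2 ratio of 0.32 in either direction) and the second at 1.5-fold, over genes whose mean reached 1 FPKM.

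*AN3* itself (AT5G28640) had 2.55 FPKM in *an3* and 21.5 FPKM in Col, a level 88.1% lower in the mutant. All 6 markers of the root tip had a mean that reached 1 FPKM, the lowest being *PLT1* with 1.47 FPKM in *an3* and 0.944 FPKM in Col. Of 4 shoot markers, *STM*, *WUS* and *CLV3* were listed at 0 in both genotypes, and *FIL* had 0.0555 FPKM in *an3* and was listed at 0 in Col. A tip of this length holds dividing, elongating and differentiating cells, and in bulk RNA fewer dividing cells and less RNA per dividing cell cannot be told apart. Marker lists of other cells and phases did differ between the columns. All 8 root hair genes were lower in *an3* (summed 2139 FPKM in *an3* and 2493 FPKM in Col), and all 5 *CASP* genes of the endodermis were higher (summed 1949 FPKM in *an3* and 1493 FPKM in Col). Of 15 genes of the S phase 12 had a ratio below 0, beside 8719 of the 17229 rows, with a median of -0.19. The S phase genes summed to 170 FPKM in *an3* and 175 FPKM in Col. Ratios of all rows also moved with transcript length, as given below, and these marker lists were not set against rows of like length. The part of these lists in the values below was not tested.

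Plant cells enter mitosis when cyclin-dependent kinases bound to A- and B-type cyclins become active, and the CDKB kinases, which plants have in addition to CDKA, act mainly from G2 onward. Many genes needed at this stage are switched on together by MYB3R transcription factors, which bind a promoter element called the mitosis-specific activator (MSA), whose core reads AACGG. The spindle is then built with Aurora kinases and TPX2, the checkpoint proteins hold back the anaphase-promoting complex until chromosomes are attached, and a syntaxin, kinesins and microtubule bundlers build the new cell plate.

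The levels of the 38 genes were modest. Only 7 had a mean of at least 10 FPKM, 10 lay between 5 and 10 FPKM, 19 between 1 and 5 FPKM, and the remaining 2, *CYCA1;2* and *CYCA2;1*, stayed under 1 FPKM. The highest, *KNOLLE*, stood by its mean level above 72.2% of the rows whose mean was above 0. Summed over the 38 genes, 230.1 FPKM were found in *an3* and 220.6 FPKM in Col.

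**Figure D1:**
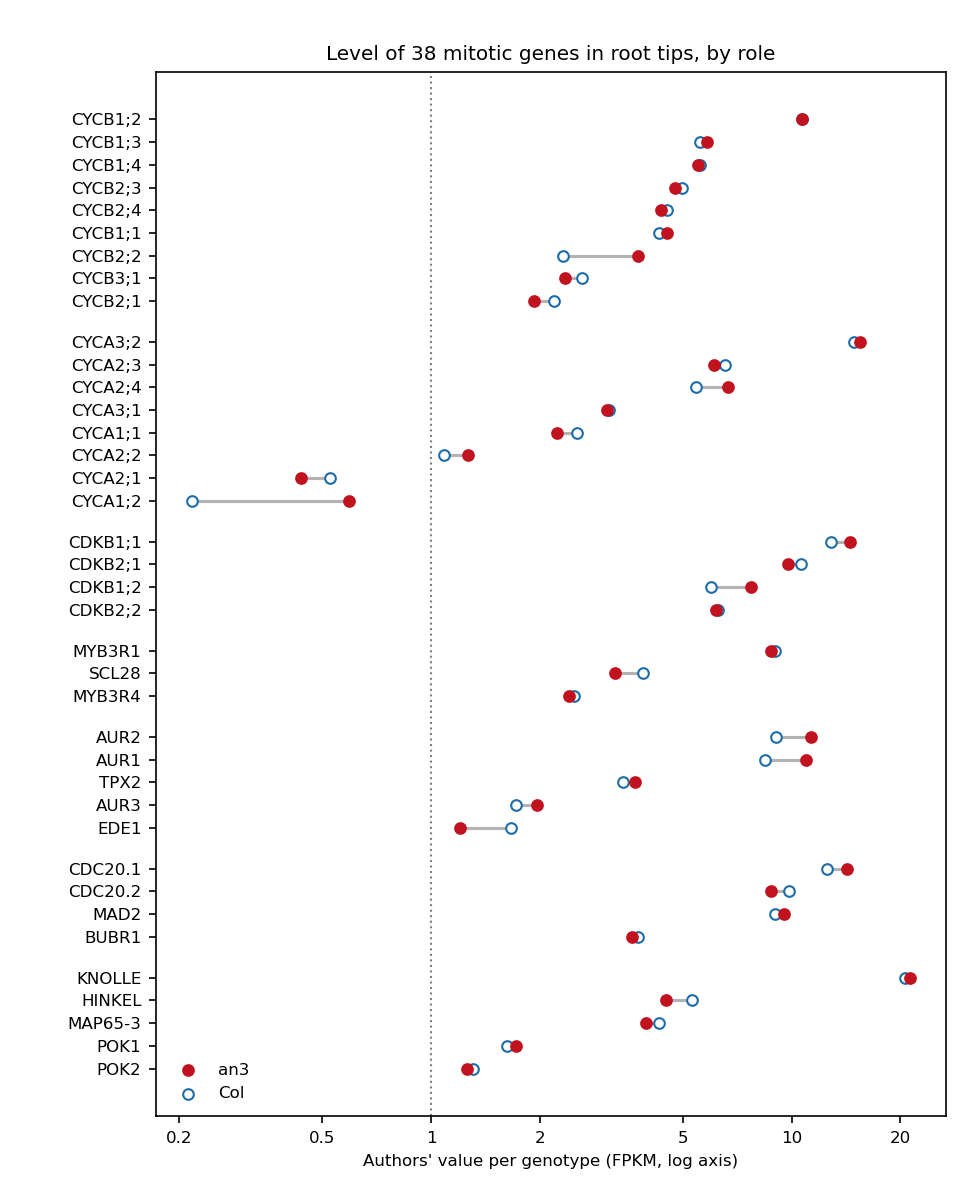
Level of each of the 38 genes in *an3* (filled red) and Col (open blue), in FPKM on a log axis, grouped by role and ordered by mean level within a role. Each point is the authors' single value for 3 samples and has no error bar, the dotted line marks 1 FPKM, and most pairs nearly coincide while *CYCB2;2* stands at 3.75 FPKM in *an3* and 2.32 FPKM in Col.

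The B-type cyclins, the cyclins of mitosis proper, were nearly level between the genotypes with the exception of *CYCB2;2*. Their summed level was 43.7 FPKM in *an3* and 42.7 FPKM in Col, 3 of the 9 genes had a ratio above 0 and 6 below, and the median ratio was -0.02.

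The 4 *CYCB1* genes were close to level. *CYCB1;1* (AT4G37490), whose promoter and destruction box are widely used to mark cells in G2 and M, had 4.52 FPKM in *an3* and 4.29 FPKM in Col. *CYCB1;2* (AT5G06150), the most abundant B-type cyclin, had 10.7 FPKM in both (log2 ratio -0.0028). *CYCB1;3* (AT3G11520) had 5.84 FPKM in *an3* and 5.56 FPKM in Col. The last of them, *CYCB1;4* (AT2G26760), had 5.51 FPKM in *an3* and 5.58 FPKM in Col. Over the 4 genes the ratios ran only from -0.02 to 0.07.

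In the *CYCB2* family 1 gene stood apart from its relatives. *CYCB2;2* (AT4G35620, chromosome 4, 16901596 to 16904001, plus strand) had 3.75 FPKM in *an3* and 2.32 FPKM in Col, a log2 ratio of 0.67. This was the highest ratio of the 36 genes that reached 1 FPKM and the only one past 1.5-fold. *CYCB2;1* (AT2G17620) pointed the other way, with 1.93 FPKM in *an3* and 2.20 FPKM in Col (log2 ratio -0.18). *CYCB2;3* (AT1G20610) had 4.76 FPKM in *an3* and 4.98 FPKM in Col, and 13.7% of its 100-base windows also occur in AT1G20590, so that reads there could be assigned to either gene. *CYCB2;4* (AT1G76310) had 4.35 FPKM in *an3* and 4.51 FPKM in Col. *CYCB2;2* thus made up 8.60% of the B-type cyclin FPKM in *an3* and 5.44% in Col, whereas the share of *CYCB2;1* was 4.43% in *an3* and 5.15% in Col. None of the 100-base windows of *CYCB2;2* occurs in another gene and no other annotated gene overlaps its exons. The single *CYCB3* gene, *CYCB3;1* (AT1G16330), had 2.35 FPKM in *an3* and 2.63 FPKM in Col.

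The upstream sequences of 3 *CYCB2* genes are shown because the MSA core lies in them in one layout while their ratios differ. Each line gives the 250 bases before the annotated gene start, read 5′ to 3′ on the strand of the gene, from the RefSeq annotation of TAIR10.1. Capitals mark AACGG on the gene's strand and CCGTT where the core lies on the opposite strand. The positions are chr2:7663805-7664054, plus strand for *CYCB2;1*, chr4:16901346-16901595, plus strand for *CYCB2;2* and chr1:7137829-7138078, minus strand for *CYCB2;3*.
CYCB2;1: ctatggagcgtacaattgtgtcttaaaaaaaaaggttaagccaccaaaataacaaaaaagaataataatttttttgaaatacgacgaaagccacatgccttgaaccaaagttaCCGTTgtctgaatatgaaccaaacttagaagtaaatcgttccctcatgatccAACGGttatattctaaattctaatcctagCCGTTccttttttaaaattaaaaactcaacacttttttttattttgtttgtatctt
CYCB2;2: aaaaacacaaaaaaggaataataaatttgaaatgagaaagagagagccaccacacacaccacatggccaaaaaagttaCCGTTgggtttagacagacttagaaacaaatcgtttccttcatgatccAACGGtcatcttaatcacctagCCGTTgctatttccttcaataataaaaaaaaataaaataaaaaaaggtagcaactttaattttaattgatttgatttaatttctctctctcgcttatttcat
CYCB2;3: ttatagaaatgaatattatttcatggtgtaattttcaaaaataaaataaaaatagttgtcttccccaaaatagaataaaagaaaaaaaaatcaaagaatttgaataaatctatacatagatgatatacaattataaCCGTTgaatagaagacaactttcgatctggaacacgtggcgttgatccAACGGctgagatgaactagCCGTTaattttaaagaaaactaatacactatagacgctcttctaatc

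In all 3 sequences the core occurs 3 times, first on the opposite strand, then on the gene's strand, then on the opposite strand again. The first bases of these matches, read on the gene's strand, lie 137, 85 and 56 bases before the start in *CYCB2;1*, 172, 124 and 102 bases before it in *CYCB2;2*, and 114, 66 and 47 bases before it in *CYCB2;3*. The first and second match are therefore 52, 48 and 48 bases apart in these 3 genes, and the next pair 29, 22 and 19 bases. The 6 bases tgatcc directly before the middle match and the 4 bases ctag directly before the last one are the same in all 3 genes. This order of strands is not limited to the *CYCB2* genes, since the 3 matches of *CYCB1;3* follow it too and *CYCB1;2* holds it within its 5 matches. *CYCB2;4*, with a log2 ratio of -0.05, has no match between 250 bases before and 50 bases after its start. In *CYCB2;1*, *CYCB2;2* and *CYCB2;3* the layout thus goes with log2 ratios of -0.18, 0.67 and -0.06.

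*CYCB1;2* is shown as the member with the most matches to the core, of which 4 lie in the 250 bases before its start (chr5:1861704-1861953, minus strand) and 1 just after it. Its level was the same in both genotypes to 3 digits. Each of its 5 matches carries a C at the second position before the core on the strand of the match, the longer form CNAACGG.
CYCB1;2: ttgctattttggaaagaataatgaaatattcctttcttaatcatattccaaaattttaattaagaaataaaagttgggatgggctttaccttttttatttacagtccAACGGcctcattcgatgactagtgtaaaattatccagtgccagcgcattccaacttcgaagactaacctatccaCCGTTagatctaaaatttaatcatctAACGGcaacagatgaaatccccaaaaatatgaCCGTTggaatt

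The A-type cyclins, which act from S phase to early mitosis, had a summed level of 35.8 FPKM in *an3* and 34.3 FPKM in Col. Of the 8 genes 4 had a ratio above 0 and 4 below, and none of the 6 that reached 1 FPKM passed the first line. *CYCA3;2* (AT1G47210), of a subfamily known for expression around S phase, gave 43.1% of the A-type FPKM in *an3* and 43.3% in Col, with 15.5 FPKM in *an3* and 14.9 FPKM in Col. *CYCA3;1* (AT5G43080) had 3.07 FPKM in *an3* and 3.12 FPKM in Col.

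Within *CYCA2*, cyclins that keep cells in mitotic cycles and restrain endoreduplication, the genes did not share a direction. *CYCA2;4* (AT1G80370) had 6.66 FPKM in *an3* and 5.43 FPKM in Col (log2 ratio 0.29). *CYCA2;3* (AT1G15570) had 6.10 FPKM in *an3* and 6.53 FPKM in Col (log2 ratio -0.10). *CYCA2;4* was therefore the more abundant of the pair in *an3* and *CYCA2;3* the more abundant in Col, although neither passed the first line. *CYCA2;2* (AT5G11300) had 1.27 FPKM in *an3* and 1.09 FPKM in Col. The lowest gene of the subfamily, *CYCA2;1* (AT5G25380), had 0.437 FPKM in *an3* and 0.524 FPKM in Col.

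*CYCA1;1* (AT1G44110), a cyclin of G2 and M, had 2.24 FPKM in *an3* and 2.54 FPKM in Col (log2 ratio -0.17). *CYCA1;2* (AT1G77390), known for its role in meiosis, had 0.592 FPKM in *an3* and 0.217 FPKM in Col. Its log2 ratio of 1.12 was the highest of all 38 genes, at a level under 1 FPKM in both genotypes.

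Among the CDKB kinases only *CDKB1;2* passed the first line. Both *CDKB1* genes were higher in *an3* (summed 22.2 FPKM in *an3* and 18.8 FPKM in Col). The *CDKB2* genes summed to 15.9 FPKM in *an3* and 16.9 FPKM in Col, with *CDKB2;1* lower and *CDKB2;2* nearly level (log2 ratio -0.02). *CDKB1;2* (AT2G38620, chromosome 2, 16152473 to 16154086, plus strand) had 7.71 FPKM in *an3* and 5.96 FPKM in Col, a log2 ratio of 0.37. Of its exonic bases 18.3% lie under AT2G38630 on the opposite strand, which had 8.32 FPKM in *an3* and 6.01 FPKM in Col, and whether the counting used strand is not known. *CDKB1;1* (AT3G54180), the more abundant of the pair, had 14.5 FPKM in *an3* and 12.9 FPKM in Col (log2 ratio 0.17). *CDKB2;1* (AT1G76540) had 9.74 FPKM in *an3* and 10.6 FPKM in Col (log2 ratio -0.12). *CDKB2;2* (AT1G20930) had 6.18 FPKM in *an3* and 6.25 FPKM in Col. *CDKB2;1* gave 25.5% of the CDKB total in *an3* and 29.8% in Col.

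The 3 transcription factors of the set were all slightly lower in *an3*, none of them past the first line. Set against rows of like transcript length, their median was 0.10 in place of -0.05, with *MYB3R1* and *MYB3R4* above 0. *MYB3R1* (AT4G32730), which can act as activator and as repressor, had 8.77 FPKM in *an3* and 9.00 FPKM in Col (log2 ratio -0.04). *MYB3R4* (AT5G11510), an activator of mitotic genes, had 2.41 FPKM in *an3* and 2.49 FPKM in Col (log2 ratio -0.05). *SCL28* (AT1G63100), a GRAS-domain factor that acts in G2 and M, had 3.24 FPKM in *an3* and 3.86 FPKM in Col (log2 ratio -0.25), the lowest ratio of the 3.

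*SCL28* is shown as a transcription factor gene that itself holds many matches to the MSA core. All of its 4 matches have the longer form CNAACGG, and the last carries the bases gatcc directly before it, as the middle match of the *CYCB2* genes does. The core with these 5 bases before it was found in 4 of the 38 genes (10.5%), which are *SCL28* and these 3 *CYCB2* genes, and in 0.270% of 27443 protein-coding genes. These 5 bases were picked after the sequences had been seen. The share among the members follows from that choice and is no measure of enrichment. The line gives chr1:23402177-23402426, minus strand.
SCL28: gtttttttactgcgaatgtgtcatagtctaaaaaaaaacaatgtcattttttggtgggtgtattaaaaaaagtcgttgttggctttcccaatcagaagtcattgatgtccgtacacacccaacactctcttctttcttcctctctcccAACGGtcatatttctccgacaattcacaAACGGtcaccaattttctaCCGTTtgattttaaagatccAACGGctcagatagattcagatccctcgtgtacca

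Genes of the Aurora kinases and the spindle had the highest role median, 0.18, and also the lowest single ratio. All 3 Aurora genes were higher in *an3* (summed 24.3 FPKM in *an3* and 19.2 FPKM in Col, a ratio of 1.26). *AUR1* (AT4G32830, chromosome 4, 15842443 to 15844865, plus strand), one of the 2 alpha Auroras of spindle and cell plate, had 11.0 FPKM in *an3* and 8.46 FPKM in Col, a log2 ratio of 0.37. *AUR2* (AT2G25880), the other alpha Aurora, had 11.3 FPKM in *an3* and 9.06 FPKM in Col, and stood on the first line. Its FPKM was 25.2% higher in *an3* as deposited, the 0.1 FPKM added to both values leaves it just short of the line, and a pseudocount of 0.01 FPKM or a rescaling to a median ratio of 0 takes it past. *AUR3* (AT2G45490), the beta Aurora found at centromeres, had 1.97 FPKM in *an3* and 1.72 FPKM in Col.

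All 3 Aurora genes overlap a gene on the opposite strand. For *AUR1* this is *PFK6*, over 19.2% of its exonic bases, with 6.22 FPKM in *an3* and 6.13 FPKM in Col. For *AUR2* it is AT2G25890, over 36.9%, with 0.989 FPKM in *an3* and 0.979 FPKM in Col. For *AUR3* it is *GRF9*, over 10.4%, with 2.88 FPKM in *an3* and 3.16 FPKM in Col. Whether the counting used strand is not known, and the part of these overlaps in the Aurora values was not tested. Without members that overlap or share at least 10% with another gene, only *TPX2* and *EDE1* remain in this role and the median becomes -0.17.

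*EDE1* (AT2G44190, chromosome 2, 18272119 to 18274679, plus strand), a microtubule-binding protein of the spindle known from endosperm development, was the only member at least 20% lower. It had 1.20 FPKM in *an3* and 1.66 FPKM in Col, a log2 ratio of -0.44, near the lower limit of 1 FPKM set here. *TPX2* (AT1G03780), a spindle assembly factor that activates Aurora kinases, had 3.67 FPKM in *an3* and 3.41 FPKM in Col (log2 ratio 0.11).

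The checkpoint and *CDC20* genes had a summed level of 36.2 FPKM in *an3* and 35.1 FPKM in Col. *CDC20.1* (AT4G33270) and *CDC20.2* (AT4G33260), activators of the anaphase-promoting complex, lie 619 bases apart on chromosome 4. *CDC20.1* had 14.2 FPKM in *an3* and 12.5 FPKM in Col, whereas *CDC20.2* had 8.76 FPKM in *an3* and 9.83 FPKM in Col. The neighbours share 412 of their 100-base windows, 20.6% of those of *CDC20.1* and 21.3% of those of *CDC20.2*, so the split between them is uncertain. Their sum was 23.0 FPKM in *an3* and 22.3 FPKM in Col. *MAD2* (AT3G25980) and *BUBR1* (AT2G33560) belong to the spindle assembly checkpoint. *MAD2* had 9.55 FPKM in *an3* and 9.00 FPKM in Col. *BUBR1* had 3.61 FPKM in *an3* and 3.75 FPKM in Col.

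The cytokinesis genes were close to level, at a summed 32.7 FPKM in *an3* and 33.0 FPKM in Col, with 2 ratios above 0 and 3 below. *KNOLLE* (AT1G08560), the syntaxin of the cell plate and the most abundant member, had 21.3 FPKM in *an3* and 20.6 FPKM in Col. Of its exonic bases 33.5% lie under *NPQ1* on the opposite strand, which had 1.34 FPKM in *an3* and 1.03 FPKM in Col. With *KNOLLE* left out, the sums of the role had a log2 ratio of -0.13 in place of -0.02. *HINKEL* (AT1G18370), a kinesin of the phragmoplast, had 4.50 FPKM in *an3* and 5.29 FPKM in Col (log2 ratio -0.23), the lowest ratio of the role. *MAP65-3* (AT5G51600), which bundles microtubules in the phragmoplast midzone, had 3.95 FPKM in *an3* and 4.27 FPKM in Col. The kinesins *POK1* (AT3G17360) and *POK2* (AT3G19050) help to keep the plane of division. *POK1* had 1.72 FPKM in *an3* and 1.62 FPKM in Col, and *POK2* had 1.26 FPKM in *an3* and 1.30 FPKM in Col.

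**Figure D2:**
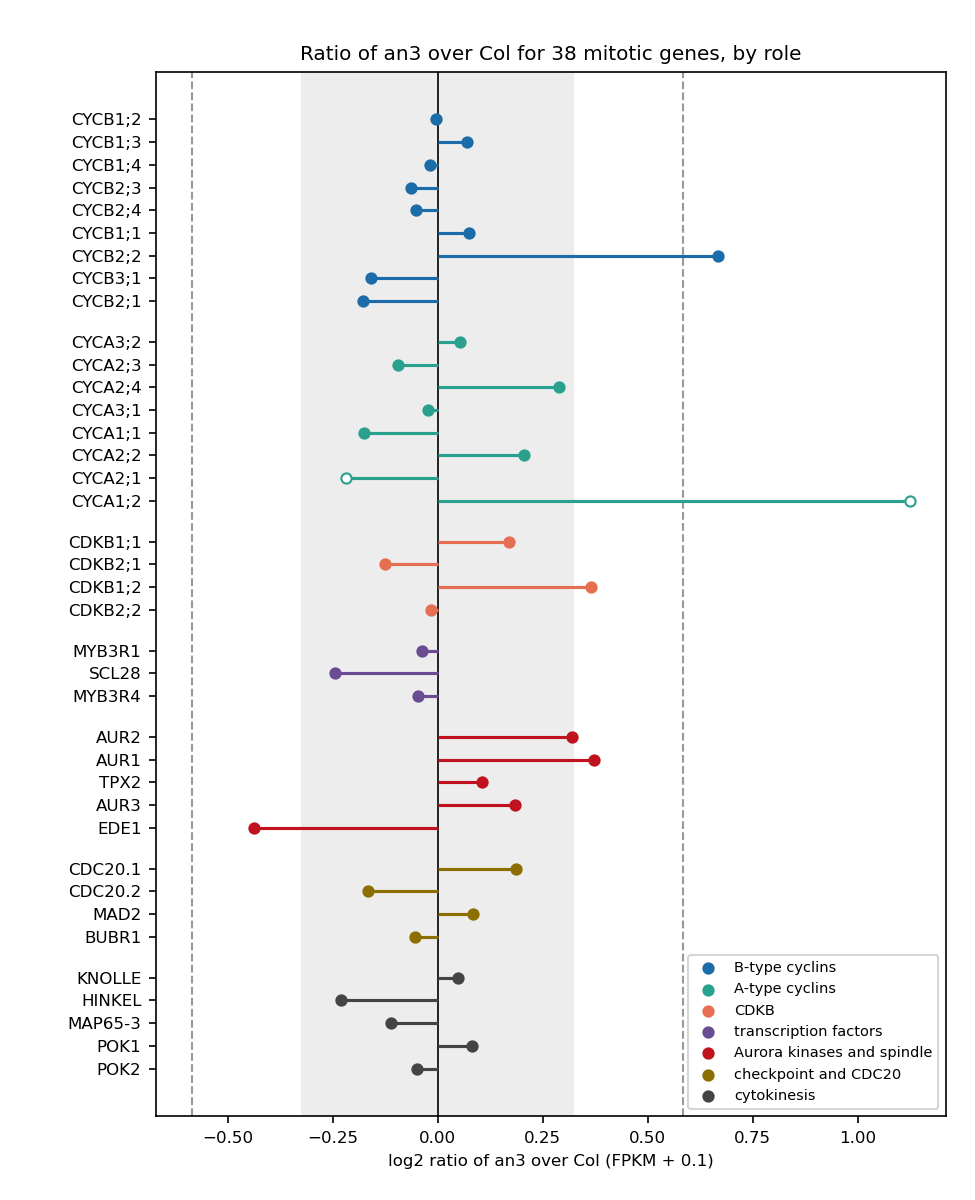
Log2 ratio of *an3* over Col for each of the 38 genes, from FPKM with 0.1 added, by role. The grey band spans ratios short of the first line, dashed lines mark 1.5-fold, and open circles are the 2 genes with a mean under 1 FPKM. *CYCB2;2*, *CDKB1;2* and *AUR1* lie right of the band, *EDE1* left of it, and *CYCA1;2* is the open circle at 1.12.

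Over all roles, 3 of the 36 genes that reached 1 FPKM (8.33%) were at least 25% higher in *an3* on the scale with 0.1 FPKM added, beside 11.4% of all 17229 such rows. They were *CYCB2;2*, *CDKB1;2* and *AUR1*, of which *CDKB1;2* and *AUR1* overlap a gene on the opposite strand. With *AUR2*, which lies on the line, the count is 4 under a pseudocount of 0.01 FPKM or the rescaling. *EDE1* alone (2.78%) was at least 20% lower, beside 10.2% of all rows. At 1.5-fold 1 gene, *CYCB2;2*, was higher, beside 3.89% of all rows, and none was lower, beside 3.06%. The remaining 32 genes (88.9%) lay between these bounds, as did 78.4% of all rows and 73.5% of the 10633 rows whose mean level lies within the range of the members. Ratios above 0 were found for 16 genes and below 0 for 20, with a median of -0.02 beside -0.0034 for all rows. The median size of the ratio regardless of sign was 0.11 for the members and 0.16 for all rows. Without the 9 members that overlap or share at least 10% with another gene, 1 of 27 was at least 25% higher. The number at least 25% higher thus depends on the overlapping *AUR1* and *CDKB1;2* as well as on *AUR2*. Without replicate values no single difference was tested here.

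**Figure D3:**
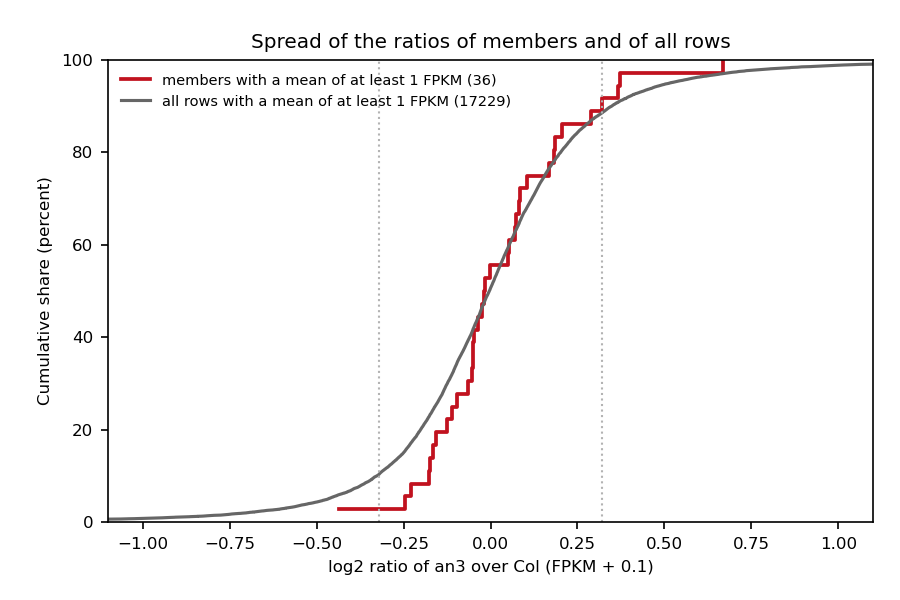
Cumulative share in percent of the 36 members (red) and of all 17229 rows (grey) that reached 1 FPKM, against the log2 ratio of *an3* over Col. Dotted lines mark 25% higher and 20% lower. The red steps climb more steeply than the grey line between the dotted lines, where 88.9% of the members and 78.4% of all rows lie.

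The promoters were then searched for the MSA core on both strands, from 250 bases before to 50 bases after the annotated start of each gene. AACGG occurred in 25 of the 38 members (65.8%), beside 24.7% of the 27443 protein-coding genes. At least 2 matches were found in 17 members (44.7%), beside 4.89% of all. The longer form CNAACGG, which contains the core, occurred in 14 members (36.8%), beside 5.52% of all. By role, the core was present in 8 of 9 B-type cyclins, 4 of 8 A-type cyclins, 1 of 4 CDKB genes, 2 of 3 transcription factors, 4 of 5 Aurora and spindle genes, 2 of 4 checkpoint and *CDC20* genes and 4 of 5 cytokinesis genes. Of the 57 matches 43 lay before the start, 36 of them within 150 bases, and 23 were on the gene's strand and 34 on the opposite strand.

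Among members that reached 1 FPKM, the 23 with the core had a median log2 ratio of -0.02 and ranged from -0.44 to 0.67. The 13 without it had a median of 0.08 and ranged from -0.12 to 0.37. Both the highest and the lowest ratio, *CYCB2;2* and *EDE1*, belong to genes with the core, and in *EDE1* its only match lies after the start. The ranges overlap widely. A match of 5 letters describes the sequence and does not show that a factor binds there.

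**Figure D4:**
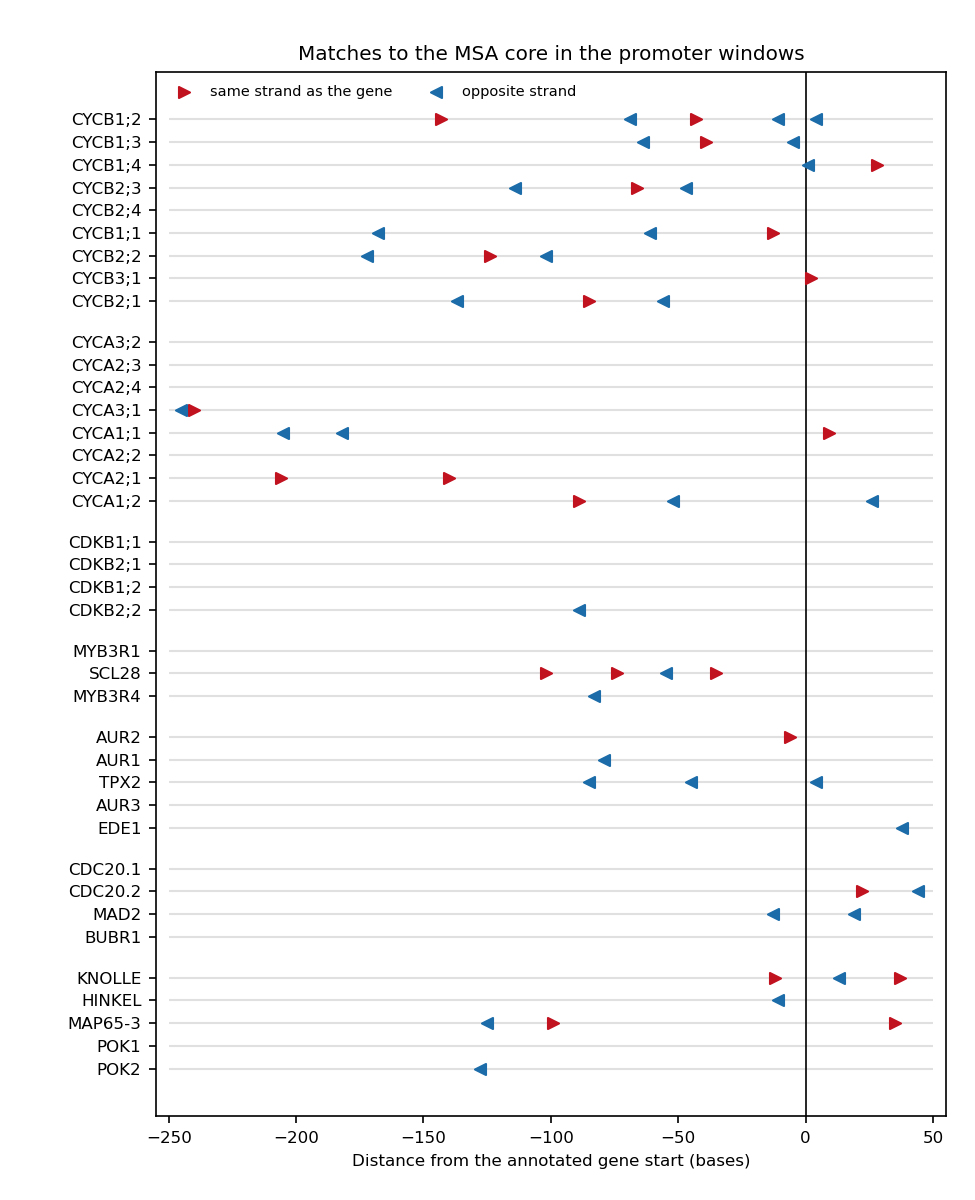
Matches to the MSA core in the window of each of the 38 genes, against the distance in bases from the annotated gene start (vertical line). Red triangles pointing right are matches on the gene's strand and blue triangles pointing left those on the opposite strand, and the opposite, same, opposite order recurs in *CYCB2;1*, *CYCB2;2*, *CYCB2;3* and *CYCB1;3* and within the matches of *CYCB1;2*.

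The ratios of all rows moved with transcript length. Over rows that reached 1 FPKM and have an annotated transcript, the median log2 ratio was 0.14 for those under 1000 bases, 0.04 from 1000 to 2000 bases, -0.07 from 2000 to 3000 bases and -0.17 for those of at least 3000 bases. Across these 16899 rows Spearman's rho was -0.36, and across the 36 members it was -0.30. These are genes of the same libraries and not independent replicates. The members had medians of 0.05 (22 genes), -0.06 (8 genes) and -0.05 (6 genes) in the 3 upper classes. *MYB3R1*, *MYB3R4*, *SCL28*, *HINKEL*, *POK1* and *POK2* are the 6 long ones.

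Setting each member against rows within 1.2-fold of its own length left the number past the first line at 3 higher and 1 lower. On that scale *CYCB2;2* stood at 0.66, *EDE1* at -0.42, *AUR2* at 0.38, *AUR1* at 0.33, *POK1* at 0.31 and *CDKB1;2* at 0.31. *AUR2* was thus past the first line there and *CDKB1;2* short of it. *MYB3R1* and *MYB3R4*, just below 0 as deposited, stood at 0.12 and 0.10, and *SCL28* at -0.13. Of the 3 transcription factors only *SCL28* was lower than transcripts of its own length. Among the cytokinesis genes *HINKEL* stood at -0.09 in place of -0.23, and *POK2* at 0.23 in place of -0.05. What lies behind the trend with length was not tested.

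**Figure D5:**
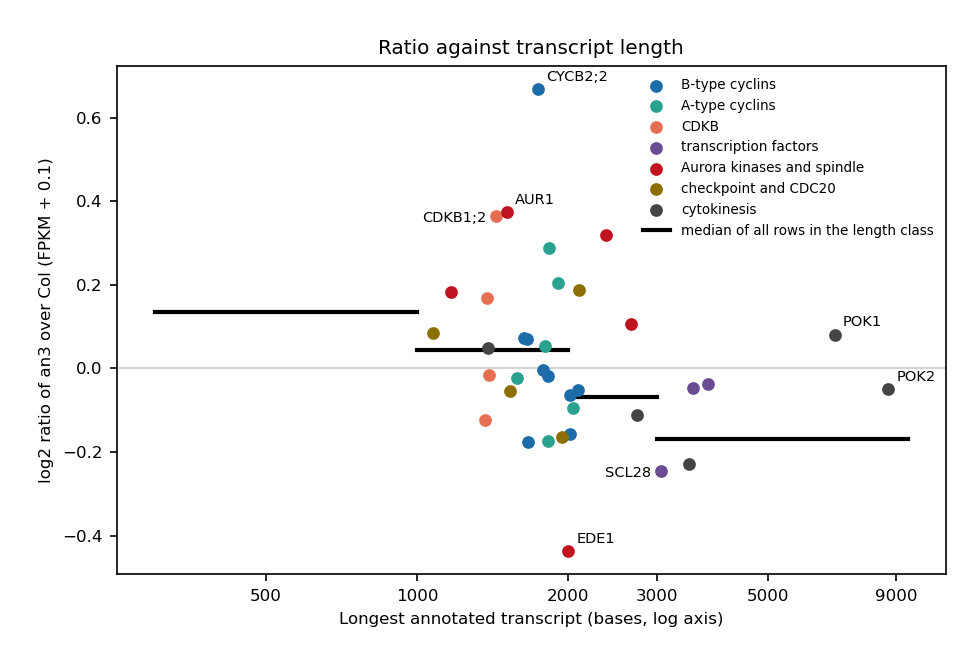
Log2 ratio of *an3* over Col for the 36 members that reached 1 FPKM, coloured by role, against the longest annotated transcript in bases on a log axis. Black bars give the median of all rows in a length class, which steps down from 0.14 to -0.17, and the members scatter around the bars with *CYCB2;2* at the top and *EDE1* at the bottom.

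Other genes of mitosis were 57 by a hand list of kinase partners, anaphase-promoting complex subunits, phragmoplast and kinetochore genes. Their shares past the lines were similar to those of the members, and their median lay further below 0. Of the 56 that reached 1 FPKM, 5 were at least 25% higher in *an3*, beside 11.4% of all rows. At least 20% lower was 1 of them, beside 10.2% of all rows. This was *APC4*, a subunit of the anaphase-promoting complex, with 2.74 FPKM in *an3* and 3.63 FPKM in Col. The median ratio was -0.08, beside -0.02 for the members, with 22 ratios above 0 and 34 below. Past 1.5-fold were *GIP1*, a component of gamma-tubulin complexes, with 5.56 FPKM in *an3* and 3.11 FPKM in Col (log2 ratio 0.82), and *PANS1*, an inhibitor of chromatid separation, with 12.0 FPKM in *an3* and 7.20 FPKM in Col (log2 ratio 0.73). None was 1.5-fold lower. Of all rows, 3.89% were at least 1.5-fold higher and 3.06% at least 1.5-fold lower.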

How the data were processed

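RNA-seq of root tips was used, with 3 *an3* and 3 Col samples grouped by their genotype labels. The authors trimmed reads with fastq-mcf, aligned them with HISAT2 and computed FPKM with Cufflinks through TuxNet. Tool versions were not given in the sources used here, nor were the genome build and annotation. The deposited FPKM values are 1 per genotype, so depth and the spread between samples are unknown, and no p-value was computed. The 2 deposited columns with the authors' log2 fold change and q-value were not used. Log2 ratios used a pseudocount of 0.1 FPKM, and counts (at 25% higher or 20% lower, and at 1.5-fold, all with the pseudocount added) and medians used rows whose mean reached 1 FPKM. The counting was tested on simulated data. All 38 loci were named in full, and other mitosis genes were named past 1.5-fold; *APC4* was chosen after its values were seen. The members and lists were chosen with earlier results of these data known. Gene positions, transcripts and sequences come from RefSeq TAIR10.1, matched by locus. The table holds no coordinates. A gene shares a window where 100 bases of its transcripts also occur in another gene. Python 3.11.15, pandas 2.3.3, numpy 2.4.6 and matplotlib 3.10.9 were used. Alternatives were other pseudocounts, level limits, a rescaling to a median ratio of 0 and other backgrounds; centring by like length, leaving out overlapping members and the longer motif were added after seeing the data.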

Additional observations from a re-analysis of the deposited data

How the results depend on the processing

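Ratios were taken as moved past 0.1 on the log2 scale and counts past 1.5-fold, since no replicate spread is known. With a pseudocount of 0.01 FPKM or a rescaling to a median of 0, no ratio or median shifted by more than that, but *AUR2* passed the first line (log2 ratio 0.32 in both), so that 4 members instead of 3 were at least 25% higher. Under the rescaling *CYCB1;2*, at -0.0028, came to 0.00052. With a pseudocount of 1 FPKM, 0 members were at least 20% lower and 0 at least 1.5-fold higher, as *CYCB2;2* came to 0.52 and *EDE1* to -0.27. With no limit on level, 2 members were at least 1.5-fold higher. With a mean of at least 5 FPKM (17 members), 0 were at least 20% lower and 0 were 1.5-fold higher. The Aurora and spindle median, then of *AUR1* and *AUR2* alone, was 0.35. The medians of all members and of the cytokinesis genes, both below 0 otherwise, were 0.05, with *KNOLLE* the only cytokinesis gene left. Against rows of like length the transcription factor median was 0.10 in place of -0.05. Without members that overlap or share sequence with another gene (27 left), 1 was at least 25% higher and the Aurora and spindle median was -0.17. Without *KNOLLE* the log2 ratio of the cytokinesis sums was -0.13. The motif CNAACGG was held by 36.8% of the members. No paired analysis was possible because the table gives 1 value per genotype, and leaving out single samples could not be run for the same reason. The depth of the samples is unknown, so the precision of no member can be given.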

Other observations

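Length also ordered the ratios of the other mitosis genes. All 3 with a longest transcript under 1000 bases were higher in *an3*: *CKS1*, a partner of cyclin-dependent kinases, with 45.3 FPKM in *an3* and 32.3 FPKM in Col, its neighbour *CKS2* with 27.1 FPKM in *an3* and 25.3 FPKM in Col, and *SAMBA*, a regulator of the anaphase-promoting complex, with 13.7 FPKM in *an3* and 10.4 FPKM in Col. All 12 of at least 3000 bases had a ratio below 0, between -0.21 and -0.02, with a median of -0.12. These genes were chosen after their values were seen. Of all rows that reached 1 FPKM, 1623 of 2301 under 1000 bases had a ratio above 0. Among those of at least 3000 bases 310 of 1937 did, with a median of -0.17. What lies behind the order by length was not tested.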
